A study of Sus scrofa domesticus with 2 samples.

Results

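The cells described here were 116 deeply sequenced endothelial cells (ECs) from cultured pig aorta. After cells high in G2/M genes had been set aside, these cells carried the largest shares of DNA replication transcripts. They made up 9.79% of the 1185 barcodes of the aorta library and were taken from 7131 barcodes in the series. Barcodes with 5000 or more detected genes, under 30% of UMIs (unique molecular identifiers, which count captured RNA molecules) from 13 mitochondrial genes, and more PECAM1 UMIs than COL1A1 and COL1A2 UMIs together were kept first. PECAM1 is an endothelial adhesion molecule, and the collagens mark fibroblasts. This left 581 cells. The 116 cells with the largest share of UMIs from the G2/M genes TOP2A, UBE2C, CENPF and CDK1 were then set aside. The remaining 465 cells were ranked by their share of UMIs from MCM4, MCM6, MCM7, MSH6 and PCNA, and the top 25% were called S-phase aorta ECs. The 349 cells below them are called the other cells, and the 116 set aside are called G2/M cells.

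Primary ECs had been isolated by enzyme digestion from the aorta near the lung and from a lung of the domestic pig. Both were grown in DMEM with 10% fetal calf serum, non-essential amino acids, pyruvate, Glutamax and antibiotics, with no other treatment named. One 10x Genomics 3' library was sequenced for each tissue, so there was 1 library per group, and no test of a difference could be made. The methods describe the pigs whose tissues went into scRNA-seq as slaughterhouse animals, crosses of Duroc, Landrace and Large White, at 6 months of age. Their sex and the passage of the cultured cells were not given in the sources used here. The study's methods remove cells at 5000 or more genes as likely doublets, and every cell described here lies beyond that limit. In this library 709 of the 1185 barcodes lay beyond it. The paper's count of aorta cells after filtering exceeds the number of barcodes below the limit. Some cells of this depth therefore appear to have been kept in the study, and which ones is not known here. The scRNA-seq showed 30957 to 120479 UMIs in an S-phase cell, with a median of 58410, against medians of 52988 in the other cells and 72127 in the G2/M cells. The median cell had 6931.5 detected genes in the S-phase group and 6448 in the other group, and mitochondrial transcripts took 6.10% and 7.21% of UMIs. Scrublet, a doublet caller, marked 2 of the 116 S-phase cells, 2 of the 349 other cells and 0 of the 116 G2/M cells. Of the barcode sequences, 5 occurred in both libraries, 1 of them in an S-phase cell.

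In S phase a cell copies its genome once. Helicase rings of MCM proteins are loaded onto origins in G1, cyclin E with CDK2 and the kinase CDC7 start the origins, and polymerases held by the sliding clamp PCNA then copy the strands while new histones are packed onto them. The genes of this machinery are largely switched on together at the G1/S border by E2F factors, and several of their products are removed again before mitosis. Quiescent endothelium rarely divides, whereas ECs in serum-containing culture cycle.

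The ranking genes are given as a description, since they chose the cells. Levels are CPM (UMIs per 1000000 UMIs summed over the cells of a group) with exact Poisson 95% intervals, and ratios have exact conditional binomial 95% intervals. Both cover counting error only and not the spread between cultures or animals. The 5 genes together ranged from 588.8 to 1879 CPM per S-phase cell with a median of 893.6. They ranged from 0 to 584.7 CPM per other cell with a median of 107.3. In the G2/M cells, set aside before this ranking, they ranged from 131.0 to 1726 CPM with a median of 741.3. The median G2/M cell thus lay above the lowest S-phase cell. The lowest S-phase cells held 588.8, 595.5 and 603.1 CPM and the highest other cells 584.7, 582.0 and 581.2 CPM, so the cells formed a continuum at the limit. The lowest G2/M cell held 824.2 CPM of the G2/M genes and the highest kept cell 819.8. The sliding clamp PCNA stood at 321 CPM in S-phase cells and 51.3 in the other cells. Of the helicase subunits, MCM4 stood at 142 against 21.0 CPM, MCM6 at 160 against 39.9 CPM and MCM7 at 196 against 30.9 CPM. The mismatch repair gene MSH6 stood at 148 against 20.6 CPM. When each gene was left out and the cells ranked by the other 4, between 108 and 111 of the 116 cells were chosen again. The gene left out was still 3.64-fold (MCM6) to 6.12-fold (MCM4) higher in the cells so chosen.

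Genes of the S phase that the ranking had not used were higher in the S-phase cells almost without exception. Of 7885 genes at 10 CPM or more in either group, 1099 (13.9%) were 1.5-fold or more higher in S-phase than in other cells, 440 (5.58%) were 1.5-fold or more lower, and the median ratio was 1.04. On the S-phase list, a published set of replication genes less the ranking genes, 36 of the 37 members at this level were higher by 1.5-fold or more and 0 were lower, with a median ratio of 5.02. The exception was the thymidylate synthase TYMS, at 195 against 137 CPM. Summed, the list took 2939.8 CPM in S-phase cells and 801 CPM in the other cells, a ratio of 3.67 (3.59 to 3.75). By cell, the list ranged around a median of 3006 CPM (10th to 90th percentile, 1981 to 3743) in S-phase cells and 603 CPM (309.9 to 1682) in the other cells. All 116 S-phase cells lay above the median of the other cells, and 114 lay above their 90th percentile.

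**Figure D1:**
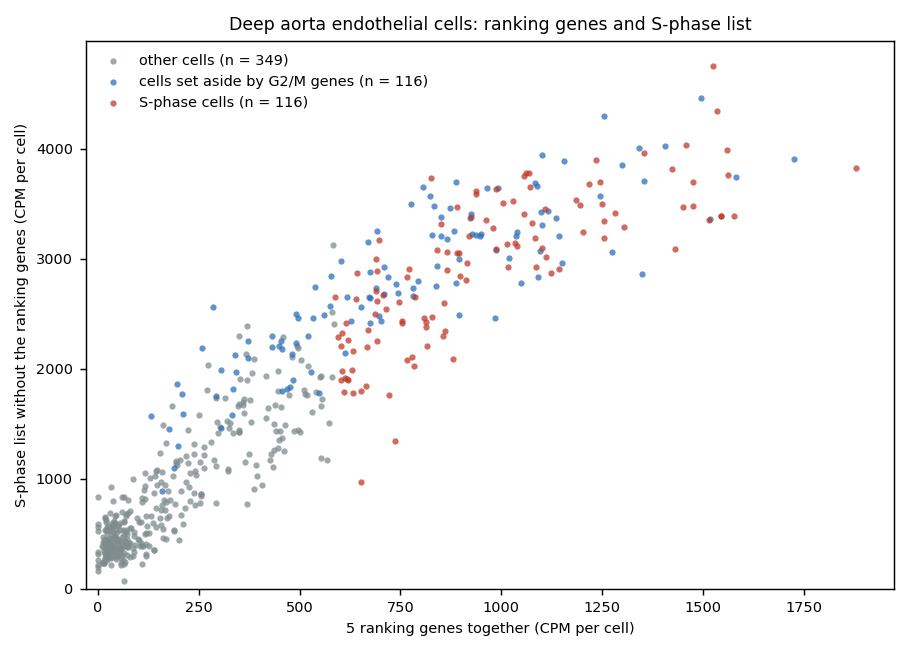
Each point is 1 of 581 deep aorta cells: the 5 ranking genes together (CPM per cell) against the S-phase list without those genes (CPM per cell). The 116 S-phase cells begin at 588.8 CPM on the horizontal axis by construction, and the list rises with the ranking genes across all 3 groups without a gap.

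Endothelial identity was checked against 13 markers, of which 11 reached 10 CPM. None differed by 1.5-fold, 10 of the 11 had a ratio below 1, and the summed ratio was 0.89 (0.87 to 0.90). Of all 7885 genes compared, 6346 also lay within 1.5-fold. CDH5, which encodes VE-cadherin of endothelial junctions, stood at 180 CPM in S-phase and 203 CPM in the other cells and was detected in every cell of both groups. The TGF-β co-receptor ENG stood at 345 against 447 CPM, and the transcription factor ERG at 126 against 162 CPM. The VEGF receptor KDR and the clotting factor carrier VWF, which usually define ECs, were at 0.285 CPM each in S-phase cells, under the 0.427 CPM that 3 UMIs would give, and at 0.414 and 0.259 CPM in the other cells. The cells were thus endothelial by CDH5, ERG, ENG, EGFL7 and ECSCR but not by KDR or VWF.

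Of the other cell types, pericyte, immune, epithelial and lymphatic markers were near 0, whereas smooth muscle and fibroblast markers were not. Summed pericyte markers took 2.70 CPM in S-phase and 3.42 CPM in the other cells, immune markers 4.70 and 6.42 CPM, epithelial markers 0.711 and 0.0518 CPM, and lymphatic markers 0 and 0.0518 CPM. RGS5, a pericyte marker, and PDPN, a lymphatic marker, had no UMI in S-phase cells. Of the smooth muscle markers TAGLN, an actin-binding protein, alone reached 10 CPM, at 282 against 233 CPM. At least 1 UMI of COL1A1 or COL1A2 was found in 82.8% of S-phase cells and 82.8% of the other cells. Of the fibroblast markers other than these collagens, 4 reached 10 CPM, and the small proteoglycans DCN (a ratio of 0.45) and LUM (a ratio of 0.25) were 1.5-fold or more lower in S-phase cells. Summed fibroblast markers took 243 CPM in S-phase and 300.2 CPM in the other cells.

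The steps that license origins in G1 were covered by 13 genes at 10 CPM or more, of which 12 were 1.5-fold or more higher and 0 lower, with a median ratio of 4.25. CDC6, which loads the MCM ring with CDT1, had 34.0 CPM (29.8 to 38.6) in S-phase cells and 2.59 CPM (1.92 to 3.41) in the other cells, a ratio of 13.1 (9.65 to 18.2). The median S-phase cell held 29.7 CPM of CDC6, and over 90% of the other cells held none. CDC6 was seen in 79.3% of S-phase and 8.60% of the other cells, and in 47.4% and 2.87% after every cell had been thinned to 20000 UMIs. CDT1 stood at 58.9 against 8.85 CPM and its inhibitor GMNN, which blocks a second round of loading, at 90.4 against 18.4 CPM. Both partners of this opposed pair were higher in S-phase cells, as sums over each group. The helicase subunit MCM3 had a ratio of 8.82 (7.30 to 10.7), MCM2 5.29 and MCM5 4.23. Within the origin recognition complex, ORC1 had a ratio of 7.82 and ORC6 4.25, while ORC2 (1.78) and ORC3 (1.72) were closer to 1. ORC4, at 76.3 against 82.6 CPM, was the one licensing gene that did not reach 1.5-fold.

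All 9 origin firing genes at 10 CPM were 1.5-fold or more higher, with a median ratio of 5.00. MCM10, which helps activate the helicase, stood at 79.4 against 6.47 CPM, a ratio of 12.3 (10.1 to 15.0), and reached a median of 70.7 CPM by cell. Of the GINS and CDC45 parts of the active helicase, GINS1 had a ratio of 5.17, GINS2 5.02 and CDC45 4.06. DBF4, the partner of the CDC7 kinase, had a smaller ratio of 2.26 and was at 133 CPM in G2/M cells, above its 62.9 CPM in S-phase cells.

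At the replication fork, 26 of 28 genes were 1.5-fold or more higher and 1 was lower. Their median ratio was 4.33. WDHD1, which ties polymerase alpha to the helicase, had a ratio of 12.3 (9.14 to 16.8), and CLSPN, which carries the checkpoint signal at forks, 8.89 (7.78 to 10.2). The polymerase alpha and primase genes POLA1 (5.62), POLA2 (4.99) and PRIM1 (5.53) were close to each other, as were the clamp loader genes RFC3 (5.79), RFC4 (5.33) and RFC5 (5.53). In the clamp loader, RFC1 (2.34) and RFC2 (2.12) were lower in ratio, from higher levels of 54.5 and 90.3 CPM in the other cells. Polymerase delta was split. Its catalytic subunit POLD1 had a ratio of 4.61, POLD2 stood at 16.6 against 4.04 CPM and POLD3 at 47.4 against 9.94 CPM, whereas its smallest subunit POLD4 stood at 64.7 against 132 CPM, a ratio of 0.49 (0.44 to 0.54). POLE4, an accessory subunit of polymerase epsilon, stood at 183 against 148 CPM and did not reach 1.5-fold.

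Nucleotide supply differed less than the fork, with 13 of 19 genes 1.5-fold or more higher, 0 lower and a median ratio of 1.91. Thymidine kinase TK1 had the highest ratio of these, 3.75 (3.43 to 4.11), followed by the ribonucleotide reductase subunit RRM1 at 2.85. DUT, which removes dUTP, was already at 399.6 CPM in the other cells and stood at 633 CPM in S-phase cells. The dNTP hydrolase SAMHD1, which breaks nucleotides down, was the only one of the 19 with a ratio below 1, at 0.77 (0.72 to 0.82).

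For the packing of new DNA, 14 of 15 chromatin assembly genes were 1.5-fold or more higher, with a median ratio of 4.99. The chromatin assembly factor subunits CHAF1B and CHAF1A had ratios of 12.3 (9.10 to 16.8) and 8.16 (6.50 to 10.3). UHRF1, which brings the maintenance methyltransferase to copied DNA, stood at 96.9 against 9.68 CPM, and the methyltransferase itself, DNMT1, at 248 against 65.8 CPM. The chromatin remodeller HELLS had a ratio of 9.52 and its partner CDCA7 6.98. Histones differed in size of response. H2AFZ, a variant histone made through the whole cycle, stood at 1732 against 922 CPM, while the linker histone HIST1H1D stood at 150.0 against 14.6 CPM, a ratio of 10.3 (9.00 to 11.8). In the G2/M cells HIST1H1D stood at 235 CPM, above its level in S-phase cells. SLBP, which binds the tails of replication-dependent histone RNAs, had a ratio of 2.72 to the other cells. Because the libraries primed on poly(A) and most of these histone RNAs have no such tail, the level of HIST1H1D covers only molecules that were captured.

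DNA repair genes were higher in 21 of 23 cases, with a median ratio of 4.51 and none lower by 1.5-fold. BARD1, the partner of BRCA1, stood at 67.7 against 4.25 CPM, a ratio of 16.0 (12.6 to 20.4), whereas BRCA1 stood at 87.7 against 19.4 CPM. XRCC2 (10.5), BLM (9.83), RAD51AP1 (9.64) and EXO1 (9.54), which serve homologous recombination and end resection, followed. The general damage sensors ATR (1.49) and TP53BP1 (1.12) did not reach 1.5-fold. In the cohesin ring that holds sister chromatids, 7 of 11 genes were higher. ESCO2 (5.53), which acetylates cohesin in S phase, and CDCA5 (11.5), which protects it afterwards, stood well above the ring subunits SMC1A (1.87), SMC3 (1.92) and RAD21 (1.85).

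Regulators of the G1/S step had the widest range of ratios, from 0.80 for CCND2 to 34.1 for E2F8, and 16 of 22 were 1.5-fold or more higher. The D cyclins and CDK6, which act earlier in G1, did not reach 1.5-fold. CCND1 stood at 219.8 against 210.1 CPM, CCND2 at 126 against 156 CPM and CDK6 at 134 against 136 CPM. The cyclin E genes did: CCNE2 stood at 60.6 against 5.95 CPM, a ratio of 10.2 (8.27 to 12.6), and CCNE1 at 39.0 against 7.77 CPM. Their kinase CDK2 had a ratio of 4.63.

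The E2F family divided in the same way. E2F8, a repressor that shuts replication genes down again, stood at 42.4 CPM (37.7 to 47.5) in S-phase cells and 1.24 CPM (0.796 to 1.85) in the other cells, a ratio of 34.1 (22.5 to 54.1). This was the highest ratio on any of the lists among genes at 10 CPM. The related repressor E2F7 had a ratio of 11.4 and the activator E2F2 17.8, while E2F3 (1.08) and E2F6 (1.70) had much smaller ratios. FBXO5, which holds back the mitotic ubiquitin ligase, had a ratio of 24.6 (18.5 to 33.3) and DTL, which directs the destruction of CDT1 at PCNA, 21.1 (12.3 to 38.9). E2F8 was seen in 69.8% of S-phase and 3.44% of the other cells, and in 43.1% and 1.72% after thinning.

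**Figure D2:**
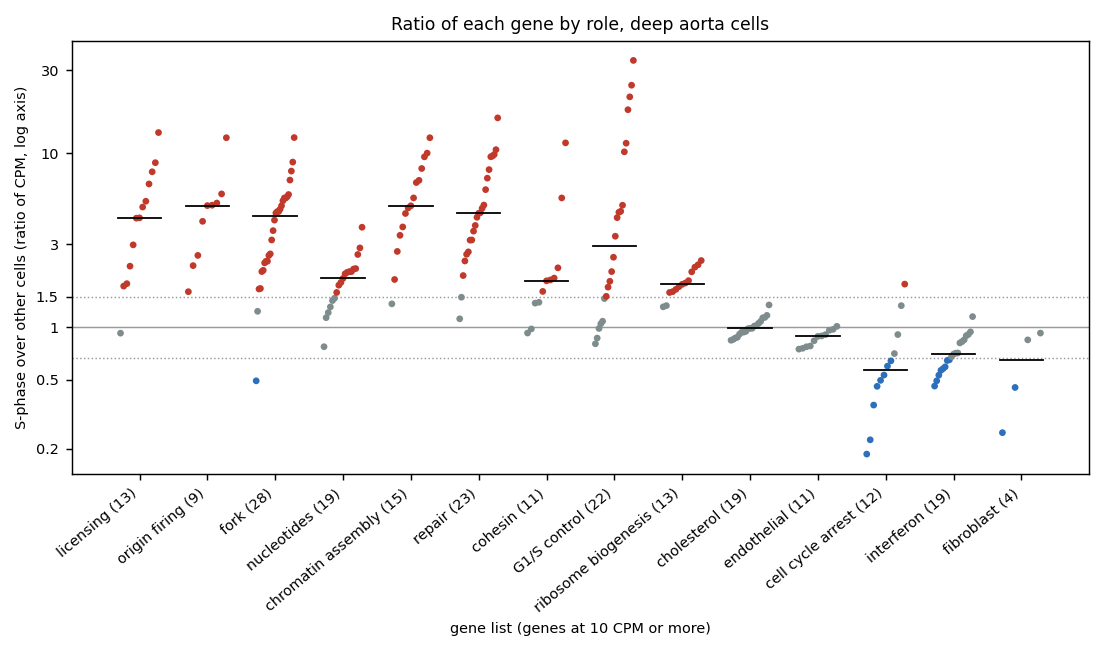
Each point is a gene at 10 CPM or more, grouped by role, with the ratio of S-phase to other cells on a log axis, a black bar at the median of the list and dotted lines at 1.5-fold each way. Replication, repair and G1/S genes lie mostly above 1.5, cholesterol and endothelial genes near 1, and the cell cycle arrest genes mostly below.

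Outside the lists, the genes with the highest ratios at 30 CPM or more were led by TCF19, at 56.6 against 2.59 CPM, a ratio of 21.9 (16.3 to 30.0). ATAD5, which unloads PCNA from DNA, had a ratio of 12.6 and the transcription factor ZNF367 9.32. The mitotic genes SPDL1 (6.73), NCAPG (6.32) and KIFC1 (5.10) and the nuclear lamin gene LMNB1 (5.10) were also among these 15. So was a gene given only as ENSSSCG00000036080, at 559.9 against 60.6 CPM. Several of these genes were higher still in the G2/M cells, where ENSSSCG00000036080 stood at 1102 CPM. Ratios of S-phase to G2/M cells were 0.61 for SPDL1, 0.55 for NCAPG, 0.45 for KIFC1 and 0.98 for LMNB1. For TCF19 (1.47), ATAD5 (1.19) and ZNF367 (1.47) they were above 1.

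Because E2F factors act through a short DNA word near gene starts, 300-base windows (250 before to 50 after the RefSeq gene start on Sscrofa11.1) were searched on both strands for TTTCCCGC, TTTCGCGC, TTTGCCGC and TTTGGCGC, with overlapping matches counted. Of 7885 genes compared, 215 (2.73%) were higher by 3-fold or more, and 194 of these had a window. Among the 194, which include the 5 ranking genes, 33 (17.0%) held a match. The share was 8.95% of 793 genes higher by 1.5- to 3-fold, 4.13% of 5563 genes within 1.5-fold, 1.83% of 382 genes lower by 1.5-fold or more and 3.37% of all 19234 windows. Mean GC content was 60.4% in the first of these sets and 62.6% in the genes within 1.5-fold. A match describes the letters only. The windows shown, 30 bases each in the direction of transcription with the matched word in capitals, belong to the 5 genes with the highest ratio that held a match and to the 2 ranking genes that did.
E2F2 (chr6:81398813-81398842, minus strand, ratio 17.8): tcgcggcacgcagTTTCGCGCtaaaaaaaa
BARD1 (chr15:117135897-117135926, minus strand, ratio 16.0): gcgccggcactTTTGGCGCgtttcggccct
ATAD5 (chr12:42920393-42920422, minus strand, ratio 12.6): cgctccggacgGCGCGAAAacccaattgac
CHAF1B (chr13:200048116-200048145, plus strand, ratio 12.3): gaggaggcggggcctgcagcGCGCGAAAag
PKMYT1 (chr3:39201839-39201868, plus strand, ratio 10.0): gccggtttggaattTTTGGCGCgagctggc
MSH6 (chr3:92814107-92814136, minus strand, ranking gene): ctcctcccagaTTTCCCGCcagcaggcgcc
MCM6 (chr15:15923565-15923594, plus strand, ranking gene): gggcaggcttgGCGCGAAAtctctgagctc
The word was centred 37 bases after the gene start in E2F2 and 33 after it in MSH6, and at -22 in BARD1 and -58 in MCM6. In ATAD5, CHAF1B and MCM6 the printed letters are the reverse complement of the word. The windows of E2F8 (gene at chr2:40178182-40194932), FBXO5 (chr1:13466961-13478496) and CDC6 (chr12:22101281-22118441), which had higher ratios than several of these, held none of the 4 words.

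The S-phase cells also carried transcripts of the next step of the cycle. On a G2/M list less the 4 genes used for the setting aside, 44 of 45 genes at 10 CPM were 1.5-fold or more higher than in the other cells, with a median ratio of 2.62 and a summed ratio of 2.36 (2.32 to 2.40). The exception was JPT1 (1.35). The ratios were highest for CKAP2L (10.9), CDCA8 (6.17) and CDCA2 (6.05), which serve the spindle and chromosome segregation, and lower for BIRC5 (1.82) and CCNB1 (2.27). TOP2A, which separates DNA strands and had been used for the setting aside, stood at 119 against 8.18 CPM. By cell, the groups overlapped widely on this list. The 10th, 50th and 90th percentiles were 1914, 3899.9 and 7026 CPM in S-phase cells and 517, 912 and 5138 CPM in the other cells, and 30 of the 116 S-phase cells exceeded the 90th percentile of the other cells.

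The other cells were not uniform, and their order by the ranking genes shows where this list was highest. In their lowest, middle and upper parts (117, 116 and 116 cells), the S-phase list took 416, 595 and 1442 CPM against 2939.8 CPM in S-phase cells, and the G2/M list 661, 1189 and 3435 CPM against 4048 CPM. Mitotic cyclin CCNB1 reached 99.9 CPM in the upper part of the other cells, above the 81.5 CPM of the S-phase cells, with 1.60 CPM in the lowest part. E2F8 ran the other way, at 3.41 CPM in the upper part and 42.4 CPM in S-phase cells. CDC6 stood at 0.580, 0.798, 6.66 and 34.0 CPM over the 4 groups in this order, and CCNE2 at 1.60, 2.39, 14.5 and 60.6 CPM. Ribosome biogenesis genes were higher along the same order, at 1897, 2231, 3492 and 4532 CPM, while the endothelial list stood at 2664, 2523, 2536 and 2292.5 CPM. Median depth did not follow this order, at 55434, 51741, 50697.5 and 58410 UMIs.

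**Figure D3:**
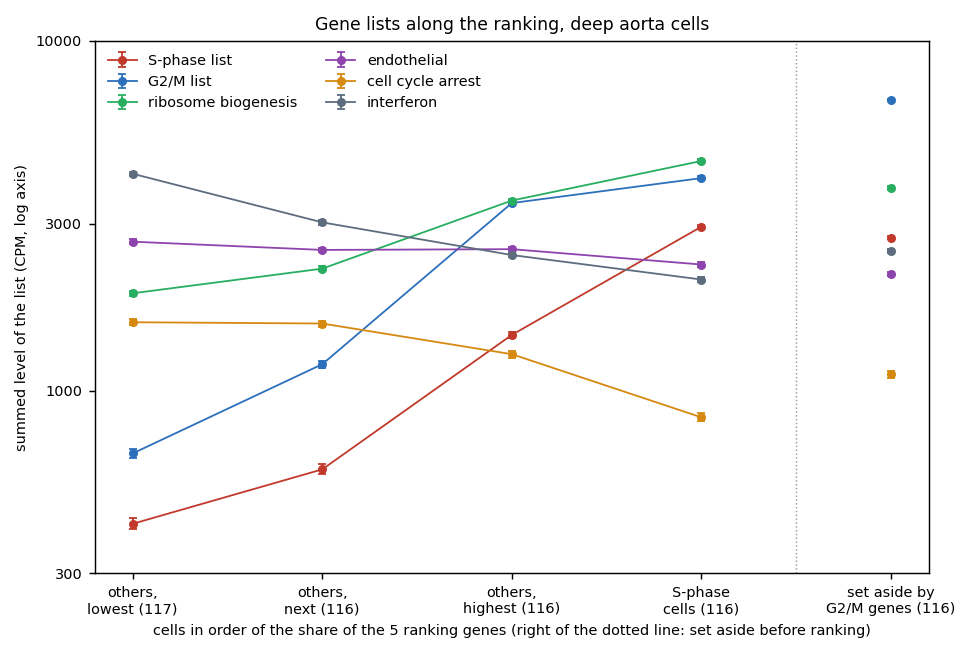
Summed level of 6 gene lists (CPM, log axis) in the other cells split in 3 by the ranking genes, in the 116 S-phase cells and, right of the dotted line, in the 116 G2/M cells; bars are 95% Poisson intervals. The S-phase list goes from 416 to 2939.8 CPM, and the cell cycle arrest and interferon lists are lowest in the S-phase cells.

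Set beside the G2/M cells, the S-phase cells differed in few genes. Of 7855 genes at 10 CPM or more in either, 88 (1.12%) were 1.5-fold or more higher in S-phase cells and 255 (3.25%) 1.5-fold or more lower. The S-phase list took 2939.8 CPM in S-phase cells and 2738 CPM in G2/M cells, with 7 of its 37 genes 1.5-fold or more higher in S-phase cells and 0 lower. The 7 were CDCA7 (2.85), CDC6 (2.80), DTL (2.57), UNG (2.27), CCNE2 (2.07), HELLS (1.85) and CHAF1B (1.72). The licensing list had a summed ratio of 1.15 (1.10 to 1.19), with 2 of 13 genes 1.5-fold or more higher, and the origin firing list 0.89 (0.85 to 0.92), with 1 of 9 higher and 2 lower. MCM2, at 59.2 against 54.9 CPM, and GMNN, at 90.4 against 85.5 CPM, did not reach 1.5-fold. Lower in S-phase cells were the mitotic cyclin CCNB3 (0.09) and the spindle gene FAM83D (0.10), beside CENPF, UBE2C, TOP2A and CDK1, which had chosen the G2/M cells. The 10 highest ratios, among genes at 30 CPM and in 25% of S-phase cells or more, included endothelial and metabolic genes. The gap junction gene GJA5 stood at 242.0 CPM in S-phase cells and 132 CPM in G2/M cells. The lipase inhibitor ANGPTL4 was 2.01-fold higher in S-phase than in G2/M cells. Against the other cells both were lower in S-phase cells, with ratios of 0.77 for GJA5 and 0.69 for ANGPTL4.

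Genes of the G1/S step and a second set with TOP2A and CDK1 were found together in most S-phase cells. The second set is not one of late genes only. Its members E2F8 and FBXO5 stood at 42.4 and 67.4 CPM in S-phase cells and at 55.9 and 74.2 CPM in G2/M cells. After thinning to 20000 UMIs, 90 of 116 S-phase cells (77.6%) held a UMI of each set. The first set was CDC6, CCNE2, CCNE1 and UNG, and the second TOP2A, CDK1, E2F8 and FBXO5. A further 11 held only the first set, 10 only the second and 5 neither. Both sets were also seen in 79 of 116 G2/M cells (68.1%), so this was not particular to the S-phase cells. In the upper part of the other cells 23 of 116 (19.8%) held both. In the lowest part of the other cells 4 of 117 held both and 84 held neither. Without thinning, both sets were seen in 91.4% of S-phase cells, 90.5% of G2/M cells and 17.9% of that lowest part. TOP2A and CDK1 had been used to set cells aside, so the second set was limited from above in the S-phase cells and favoured in the G2/M cells.

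Within the S-phase cells, a split at the median share of the 4 G2/M genes gave ratios from 0.79 to 4.12 over the 24 genes plotted. The upper 58 cells had 4.12-fold (3.52 to 4.84) more HIST1H1D than the lower 58, at 236 against 57.2 CPM, and 2.35-fold (1.82 to 3.06) more E2F8. RAD51AP1 (2.21), E2F7 (2.02), FBXO5 (1.94) and HMGB2 (1.83) were also higher in the upper cells. The licensing list and several genes of the G1/S step had smaller ratios. The licensing list stood at 1.20 (1.13 to 1.27), CDT1 at 1.31 (1.07 to 1.60) and MCM3 at 1.26 (1.05 to 1.53). CDC6 at 1.16 (0.89 to 1.51), CCNE2 at 1.18 (0.97 to 1.44) and UNG at 1.21 (0.90 to 1.62) were close to these values, with intervals that included 1. DTL (0.82) and CDCA7 (0.79) had the lowest ratios, with intervals of 0.56 to 1.20 and 0.59 to 1.06. The replication genes UHRF1 (1.62) and CLSPN (1.56) lay above the licensing list, and CCNB1 stood at 0.90 (0.76 to 1.06). The S-phase list as a whole differed by 1.26-fold (1.23 to 1.30) and the G2/M list by 1.27-fold (1.24 to 1.30). By these whole lists, the upper and lower cells differed to a similar degree in S-phase and G2/M genes. The lower cells were the shallower of the pair, with a median of 53598 UMIs against 60890.

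**Figure D4:**
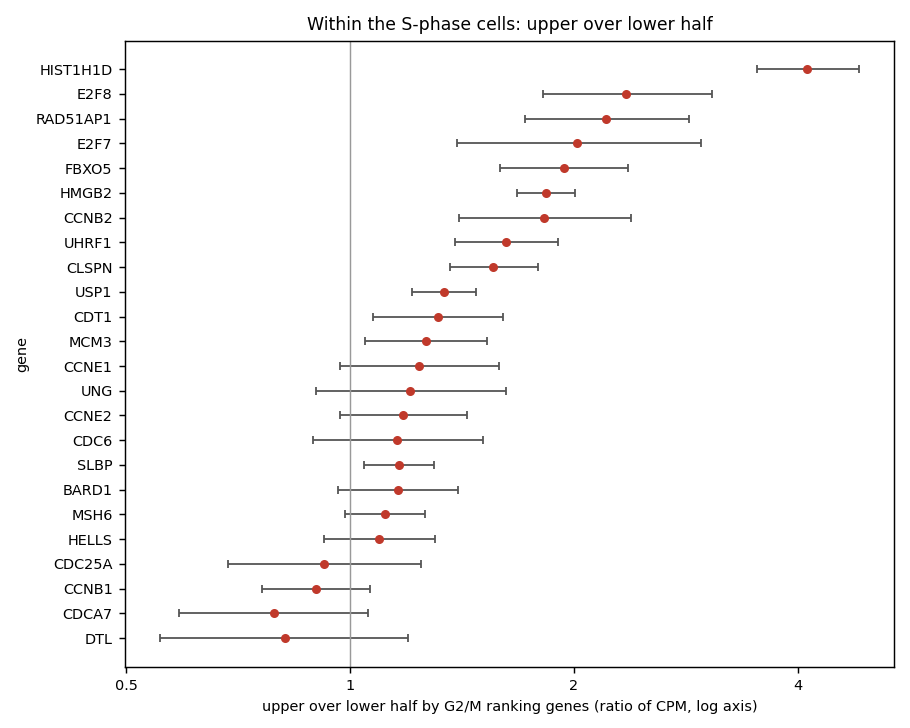
Ratio of the upper to the lower 58 of the 116 S-phase cells, split by their share of TOP2A, UBE2C, CENPF and CDK1, for 24 genes not used in the split, of which MSH6 is a ranking gene (log axis, exact 95% intervals of counting error). HIST1H1D is farthest to the right at 4.12 and DTL and CDCA7 lie left of 1 with intervals that cross it.

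Most genes of the cell cycle arrest list were lower in S-phase cells, but neither of its CDK inhibitors at 10 CPM or more was lower by 1.5-fold. The list held CDK inhibitors and DNA damage response genes. Of its 12 genes at 10 CPM or more, 8 were 1.5-fold or more lower, 1 was higher, and the summed ratio was 0.57 (0.56 to 0.59). Among all 7885 genes compared, 5.58% were lower and 13.9% higher by this limit. These shares also stand beside the cytokine and interferon counts below. The stress cytokine GDF15 had 30.6 CPM in S-phase and 164.1 CPM in the other cells, a ratio of 0.19 (0.16 to 0.21). It was at 0 in the median S-phase cell and at 58.7 CPM in the median other cell, with 90th percentiles of 82.3 and 368 CPM, so the groups overlapped. TP53INP1, which acts in cell death and autophagy, had a ratio of 0.23 (0.17 to 0.29), the RNA-binding protein ZMAT3 0.46 (0.42 to 0.50), the antiproliferative gene BTG2 0.49 (0.46 to 0.53) and the ubiquitin ligase MDM2 0.53 (0.48 to 0.59). CCNG2 (0.36), GADD45A (0.60) and BTG1 (0.64) completed the 8. CDKN2C, an inhibitor of CDK4 and CDK6, was the gene in the other direction, at 42.8 against 24.2 CPM. CDKN1A, a CDK inhibitor of the DNA damage response, was at 0.569 and 1.86 CPM and too low to compare, and CDKN1B stood at 46.5 against 51.3 CPM.

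For several of these genes the direction differed in cells without collagen UMIs. Here cells with any COL1A1 or COL1A2 UMI were left out first, and the setting aside and ranking were repeated on the rest. This gave 19 S-phase and 57 other cells, and 16 of the 19 were S-phase cells in the main ranking. The ratio became 2.47 for TP53INP1, 2.03 for MDM2 and 1.08 for GADD45A. BTG1 (0.78), BTG2 (0.77) and ZMAT3 (0.77) then no longer reached 1.5-fold. The parts of fibroblast-like transcripts and of the new choice of cells in these differences were not tested. Among other choices of cells, TP53INP1 stood at 0.85 with 30% set aside for G2/M genes. It stood at 0.75 without the 10% of cells with the highest Scrublet scores. MDM2, GADD45A and BTG1 also fell short of 1.5-fold in some of these choices, though each stayed below 1.

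Secreted and stress genes of the cytokine list were also lower, 4 of 9 by 1.5-fold or more, with 0 higher. CFD, which encodes complement factor D, stood at 19.8 against 119 CPM, a ratio of 0.17 (0.14 to 0.20). SLPI stood at 193 against 921 CPM, a ratio of 0.21 (0.20 to 0.22), with 19.5 CPM in the median S-phase cell and 124 CPM in the median other cell. Its 90th percentiles of 622 and 2064 CPM show that some cells of both groups were high. The small heat shock protein CRYAB stood at 269 against 564 CPM. The cytokine genes CXCL8 (0.73), CCL2 (0.92) and IL6 (1.01) did not reach 1.5-fold. Outside the lists, SESN3 (0.34), ISLR (0.36), MDM4 (0.37), EPHX1 (0.38), FGF2 (0.38), NUPR1 (0.42) and CLU (0.43) were lower. FGF2, a growth factor for ECs, stood at 126 against 332 CPM. In the 19 S-phase and 57 other cells chosen anew without a collagen UMI, the ratio was above 1 for SESN3 (1.44), SLPI (1.20), ISLR (1.06) and MDM4 (1.02). EPHX1 (0.81), CRYAB (0.69) and NUPR1 (0.67) then no longer reached 1.5-fold.

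Interferon-stimulated genes were lower as a group, with 8 of 19 lower by 1.5-fold or more, 0 higher and a summed ratio of 0.64 (0.63 to 0.65). IFI6, an interferon-induced gene, stood at 475 against 966 CPM and the ubiquitin-like ISG15 at 677 against 953 CPM. By cell these genes were very uneven, with 10th and 90th percentiles of the summed list at 285 and 3816 CPM in S-phase cells and 437 and 6396 CPM in the other cells. Within the S-phase cells the list was also lower in the upper than in the lower 58 cells by the G2/M genes, with a ratio of 0.59 (0.57 to 0.61). The highest cell reached 49637 CPM among S-phase cells and 52217 CPM among the other cells. How far these ratios rest on such cells was not tested.

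Growth-related RNA was higher. Of 13 ribosome biogenesis genes at 10 CPM, 11 were 1.5-fold or more higher and 0 lower, with a summed ratio of 1.80 (1.78 to 1.83). The nucleolar proteins NCL and NPM1 stood at 871 against 419 CPM and 2043 against 1195 CPM, and NOLC1 had the highest ratio, 2.41 (2.27 to 2.57). By contrast 0 of 19 cholesterol synthesis genes differed by 1.5-fold, and their summed ratio was 0.98 (0.96 to 1.00).

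In the lung library, cells of any depth above 200 genes were ranked by the same steps, which gave 1061 S-phase-ranked and 3182 other cells with median depths of 9957 and 8644.5 UMIs. The depths differ from those in the aorta, so the values are set side by side and were not compared by a test. In the lung, 446 of 7607 genes (5.86%) were 1.5-fold or more higher and 96 (1.26%) 1.5-fold or more lower. The S-phase list had a summed ratio of 2.37 (2.33 to 2.41) in the lung and 3.67 in the aorta, the G2/M list 1.35 and 2.36, and the cell cycle arrest list 0.76 and 0.57. The endothelial list had 0.91 in the lung and 0.89 in the aorta, and the interferon list 0.64 in both. Over 7403 genes at 10 CPM in both libraries the log2 ratios of the libraries correlated with Pearson's r = 0.90 and Spearman's rho = 0.82, across genes, which are not independent. Of the 1011 genes higher in the aorta, 405 (40.1%) were higher in the lung, which was 94.6% of the 428 higher there. Of the 336 lower in the aorta, 73 (21.7%) were lower in the lung, 83.9% of the 87 lower there. No gene passed 1.5-fold in opposite directions. E2F8 had a ratio of 34.1 in the aorta and 7.64 in the lung, FBXO5 24.6 and 8.46, DTL 21.1 and 10.8, and CDC6 13.1 and 7.54. GDF15 had 0.19 in the aorta and 0.56 in the lung. Marker lists of some other cell types lay on opposite sides of 1. The fibroblast list had 0.81 (0.77 to 0.86) in the aorta and 1.03 (0.95 to 1.12) in the lung, and the pericyte (0.79 and 1.04) and immune (0.73 and 1.05) lists rested on few UMIs, with intervals that included 1 in both libraries.

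**Figure D5:**
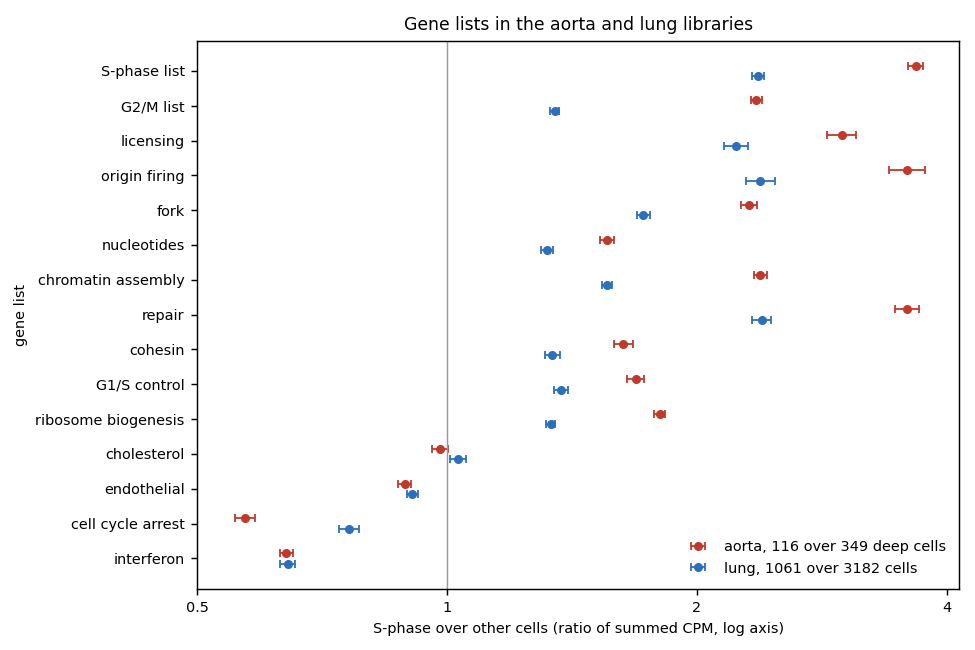
Ratio of summed CPM of 15 gene lists in S-phase over other cells (log axis, exact 95% intervals of counting error), for the deep aorta cells and for the lung cells ranked by the same genes. Every list drawn lies on the same side of 1 in both libraries except cholesterol, at 0.98 and 1.03. Marker lists of other cell types are not drawn.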

How the data were processed

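Cultured aorta and lung ECs, 1 10x Genomics 3' library each, were re-analysed. The authors deposited counts, the UMIs per gene and barcode, unnormalized and before their filters on cells. The submitters' processing notes name Cell Ranger 3.0.2, and the methods give Sscrofa11.1. Of 22804 genes, 7821 were given by identifier only, of which 1051 were named from a gene table. RRM2, CCNA2, AURKA and CDKN2A, among others, were on the lists but not matched to a feature.

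The S-phase cells, the gene lists and the comparisons were chosen with earlier results of these data known, so no pattern here is independent support. Lists overlap in genes. UMIs were summed over cells and given as CPM. Genes were compared at 10 CPM or more in either group, and 1.5-fold was the limit for a difference. With 1 library per tissue no p-value was computed and cells were not treated as replicates. Named genes were the ranking genes, members of the lists, and the 15 highest and 15 lowest ratios outside the lists among genes at 30 CPM or more and seen in 25% or more of cells where higher. PKMYT1 and E2F2 were also named for their windows. Shares of cells were also computed after thinning to 20000 UMIs, which left out 0 cells. Scrublet in scanpy 1.11.5 called 6 of 953 aorta barcodes (0.63%), and no cell was removed by it in the values above. Gene starts were read from RefSeq and matched by symbol, while the counts rest on other gene models. The ratio script was tested on simulated data. Python 3.11.15, numpy 2.4.6, pandas 2.3.3 and scipy 1.17.1 were used. Alternatives changed the limits on genes, mitochondrial share and collagen, the shares of cells taken, the ranking, the summary and the limits on genes compared. GJA5, ANGPTL4, CCNB3 and FAM83D, named from the comparison with the cells set aside, and TOP2A were chosen after their values were seen.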

Additional observations from a re-analysis of the deposited data

How the results depend on the processing

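Every alternative kept the S-phase and G2/M lists above 1 and the endothelial list below 1. With 4000 or more genes the G2/M ratio was 2.48. With 6000 or more genes the S-phase, G2/M and endothelial ratios were 3.48, 2.16 and 0.87. With a mitochondrial share under 15% the G2/M ratio was 2.40. Setting aside 10% gave 3.32, 2.14 and 0.87 for the 3 lists, and setting aside 30% gave 3.48, 2.86 and 0.93. Taking the top 10% (46 cells) gave 3.15, 1.86 and 0.86, and the top 50% (232 cells) 4.47, 4.12 and 0.93. Ranked without 1 gene, the G2/M ratio was 2.25 without MCM6, 2.31 without MCM7, 2.60 without MSH6 and 2.28 without PCNA, and the S-phase ratio 3.59 without MSH6. Ranking after thinning gave 3.41 and 2.43, and means over single cells 3.52 and 2.24. Without the 10% of cells with the highest Scrublet scores the 3 ratios were 4.41, 3.33 and 0.86.

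With cells that held a collagen UMI left out before the steps were repeated, 19 S-phase cells were chosen. Of these, 16 were S-phase cells in the main ranking. The S-phase ratio was then 3.13, and 710 genes were lower by 1.5-fold or more. A change of side was looked for only in 78 genes past 1.5-fold in the main ranking, 52 higher and 26 lower. Among the lower ones 7 changed side: TP53INP1 2.47, MDM2 2.03, SESN3 1.44, SLPI 1.20, GADD45A 1.08, ISLR 1.06 and MDM4 1.02. The cause was not tested. In the other rankings all 78 genes kept their side of 1. However, BTG1, GADD45A, MDM2, TP53INP1 and EPHX1 fell short of 1.5-fold in some. With 30% set aside, TP53INP1 stood at 0.85, BTG1 at 0.82, GADD45A at 0.76 and EPHX1 at 0.68. At 30 CPM, 614 genes were higher and 218 lower. With no lowest level these counts were 2381 and 1542, and at a fold of 2 they were 461 and 103, as fewer or more genes then qualify. In an alternative chosen after seeing the data, the other cells were limited to those with the lower G2/M list share, which gave ratios of 6.66 for the S-phase list and 6.36 for the G2/M list, and 796 genes lower.

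No paired analysis was possible because each tissue had 1 library and no replicate numbers to pair. With 1 culture per tissue, differences between cells were measured and not differences between animals. The S-phase cells are the deeper, RNA-rich part of 1 library, and doublets among them were judged by Scrublet only. A count of 0 in S-phase cells allows a level of up to 0.427 CPM, that of 3 UMIs, as a one-sided 95% limit.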

Other observations

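The counts in this section stand beside 13.9% higher and 5.58% lower by 1.5-fold or more among all 7885 genes compared. The list of TGF-β, BMP and YAP pathway genes held ligands, receptors and targets. Of its 20 genes at 10 CPM or more 0 were 1.5-fold or more higher in S-phase aorta ECs and 4 were lower, with a summed ratio of 0.94 (0.93 to 0.95). The ligand TGFB2 stood at 354 against 604 CPM, a ratio of 0.59 (0.56 to 0.61), PMEPA1 at 31.6 against 59.6 CPM, ID2 at 68.2 against 109 CPM and the receptor ACVRL1 at 20.2 against 33.5 CPM. The matricellular genes CTGF (1933.5 against 1933.1 CPM) and THBS1 (0.90) stayed within 1.5-fold.

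Of 19 genes of endothelial growth and vessel type at 10 CPM or more, 0 were higher by 1.5-fold and 1 was lower, which is near the share for all genes. That gene was the gap junction gene GJA4, at 4.27 against 12.8 CPM, and its relative GJA5 stood at 242.0 against 313 CPM. The tip cell gene ESM1 stood at 885 against 1275 CPM, a ratio of 0.69, while VEGFC (1.31) and NOTCH1 (1.30) had ratios above 1. Of 9 immediate early genes 0 were higher and 2 were lower by 1.5-fold, ATF3 (0.66) and KLF2 (0.64), and each of the 9 had a ratio below 1. In the adhesion list, VCAM1 stood at 3538 against 4117 CPM and JAM2 at 26.3 against 43.0 CPM, the latter the 1 of 6 lower by 1.5-fold.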
